A study of Mus musculus with 12 samples.

Results

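The haem synthesis and iron uptake genes described here are 9 mouse genes, Alas2, Alad, Uros, Urod, Cpox, Ppox, Fech, Tfrc and Slc25a37, picked by gene symbol from the deposited tables. All 9 were listed in both tables, among 29736 genes for the LSK-labelled libraries and 31042 for the GMP libraries, of which 24982 were shared. RNA of marrow progenitors was measured by Smart-Seq2, which amplifies full-length cDNA from small inputs. The mice were C57BL/6 and bore melanoma, as the title of the series has it. Each of the 4 groups, LSK and GMP cells with and without the agonist, held 3 libraries. LSK stands for lineage-negative cells with Sca-1 and Kit, GMP for granulocyte-monocyte progenitors, and the agonist was diABZI, a small molecule that activates the innate immune adaptor STING. Controls and treated mice were of the same strain, and no dose, time, age or tumour line is given in the sources used here. The labels call the material single cells and give neither the number of cells nor the mouse behind a library, and p-values here cover only the spread between libraries, which may be technical.

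Haem is an iron-holding porphyrin made partly in mitochondria and partly in the cytosol. Its synthesis opens with aminolevulinate (ALA) synthase, made from Alas1 in most cells and from Alas2 in erythroid cells, and ends when ferrochelatase places iron in the ring. Iron reaches the cell as transferrin bound to the transferrin receptor, and mitoferrin carries it into the mitochondrion. Red cell precursors make more haem than any other marrow cell, and myeloid progenitors make it for enzymes such as myeloperoxidase. When iron is scarce, iron regulatory proteins bind a hairpin called the iron-responsive element. Bound to the 5′ end of the Alas2 mRNA they hold back its translation, and bound to the 3′ end of the Tfrc mRNA they slow its decay.

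These hairpins of Alas2 and Tfrc are shown because they tie both mRNAs to iron supply. The sites were found in GENCODE M21 transcripts (GRCm38) by a search for C, 5 bases, CAGTGN and 5 bases able to pair with the first 5, G-T pairs allowed, on the transcript strand. The 6 bases of the loop are in capitals. Alas2 held 1 match in its 5′ UTR, on chromosome X at chrX:150547459-150547485, plus strand. Tfrc held 4 in its 3′ UTR on chromosome 16, plus strand, at chr16:32631220-32631246, chr16:32631599-32631625, chr16:32631664-32631690 and chr16:32631711-32631737, listed in that order. The letters A to D give only this order of matches and are not the established names of the elements. Elements with a loop other than CAGTGN are missed by this search, so the count of 4 may be incomplete.
Alas2 5′ element: tggttcgtcctCAGTGCagggcaacag
Tfrc element A: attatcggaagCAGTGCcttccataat
Tfrc element B: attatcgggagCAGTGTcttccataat
Tfrc element C: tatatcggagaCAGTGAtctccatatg
Tfrc element D: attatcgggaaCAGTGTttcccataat
The same search matched 5′ UTRs of 21 of 19799 genes (0.106%) and 3′ UTRs of 112 of 20680 genes (0.542%).

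Start regions were available from RefSeq (GRCm38.p6) for 7 of the 9 members, at 10 starts. The letters AGATAA or TGATAA, the site bound by GATA factors of erythroid cells, were present on either strand within 250 bases before a start in 3 of 7 members, Alas2, Cpox and Uros, and at 3 of 10 starts, against 16.6% of all 32851 starts. The letters CCNCNCCC take in CACCC sites of the kind bound by Klf1 but, as N is any base, also stretches without CACCC. They also miss CACCC in other surroundings. The Cpox region had no match to CCNCNCCC, yet it holds unmarked GGGTG, which is CACCC on the opposite strand. Matches to CCNCNCCC were present in 4 of 7 members and at 6 of 10 starts, against 45.9% of all starts. Such matches often overlapped each other. The regions of Cpox and Alas2 are shown because both held the GATA letters at position -86 from the RefSeq start. The Alas2 stretch ends 42 bases before that start, where the annotated exon begins. The 4 matches of Alas2 to CCNCNCCC, which lie nearer to the start, are therefore not shown. Alad, the member with the highest level per length in LSK-labelled libraries, held no GATA letters before either of its RefSeq starts. The region of its outermost start is shown, and the other start, not shown, had 4 matches to CCNCNCCC. Capitals mark matches, here GATA letters on the opposite strand (TTATCA and TTATCT) and, in Alad, 2 overlapping matches to CCNCNCCC on the opposite strand. The stretch marked in Alad holds no CACCC. The regions lie at chr16:58669958-58670207 (plus strand) for Cpox, chrX:150547167-150547374 (plus strand) for Alas2 and chr4:62520064-62520313 (minus strand) for Alad.
Cpox: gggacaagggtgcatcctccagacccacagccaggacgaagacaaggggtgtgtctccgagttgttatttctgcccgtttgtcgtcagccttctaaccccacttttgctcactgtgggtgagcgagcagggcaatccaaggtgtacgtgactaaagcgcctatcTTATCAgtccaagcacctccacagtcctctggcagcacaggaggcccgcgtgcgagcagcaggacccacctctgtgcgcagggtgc
Alas2: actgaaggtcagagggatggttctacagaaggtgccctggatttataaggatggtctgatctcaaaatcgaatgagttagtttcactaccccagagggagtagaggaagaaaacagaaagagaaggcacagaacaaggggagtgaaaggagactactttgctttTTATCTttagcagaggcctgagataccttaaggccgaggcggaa
Alad: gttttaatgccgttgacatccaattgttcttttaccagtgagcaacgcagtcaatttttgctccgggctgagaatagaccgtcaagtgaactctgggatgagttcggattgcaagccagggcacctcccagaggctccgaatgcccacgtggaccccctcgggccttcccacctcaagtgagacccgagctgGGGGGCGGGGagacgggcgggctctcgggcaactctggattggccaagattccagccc
A match is a description of these letters, and binding was not measured.

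The marker genes bear on what the LSK-labelled libraries held. Ly6a, which encodes Sca-1, stood at 0.827, 0.402 and 0.598 counts per 1000000 library counts (CPM) in LSK controls, whereas Kit stood at 283, 345 and 194 CPM. In treated LSK, Ly6a measured 5.31, 5.77 and 9.07 CPM. The 14 erythroid markers in the tables summed to between 10835 and 15481 CPM in the LSK-labelled control libraries and 12237 and 16731 CPM in treated LSK, with none at 0, against 78.7 to 83.9 CPM and 47.6 to 54.7 CPM in GMP. Erythroid genes were thus high in the libraries labelled LSK and the defining Sca-1 gene near 0 in their controls, and these libraries are called LSK-labelled throughout. The 11 granulocyte-monocyte markers summed to 398 to 4165 CPM in LSK controls, 1381 to 11332 CPM in treated LSK and 40077 to 52138 CPM in GMP. Basophil and mast cell markers (6 genes) summed to 147 to 546 CPM in LSK-labelled and 285 to 1255 CPM in GMP libraries, marrow macrophage markers (6 genes) to 10.02 to 46.3 CPM in all libraries, lymphoid markers (5 genes) to at most 76.7 CPM, and stem cell and LSK markers (9 genes) to 184 to 554 CPM. Library totals ran from 30649314 to 47225983 counts. Counts of Alas2 ran from 17 to 319 per library and those of the other members from 338 to 30637, so counting error weighs most on Alas2. The number of cells behind a library is not given, and fewer cells of a type and less RNA per cell cannot be told apart.

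In control mice, 7 of the 9 genes were lower and 1 was higher in GMP than in LSK-labelled libraries. The lower genes were the synthesis enzymes Alad, Uros, Urod, Cpox, Ppox and Fech and the transferrin receptor Tfrc, by 3.08- to 6.99-fold. The higher gene was Slc25a37, by 2.33-fold. Alas2 did not pass the test. Of the 16857 genes tested in this contrast, 11.5% passed at an adjusted p below 0.05 (edgeR quasi-likelihood test, Benjamini-Hochberg adjustment), 6.98% as lower and 4.55% as higher. The 8 genes that passed had no overlap between GMP and LSK control libraries, as had 30.0% of all genes. The median log2 difference was -1.78 over the 9 genes and 0.04 over all genes. The erythroid and granulocyte-monocyte marker sums above moved with the same contrast, and their part in these differences was not tested. The count of 8 was found under each of the 19 alternative fits.

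Per kilobase of transcript, Alad and Urod of the cytosolic steps had the highest levels of the 9 genes in every group. Alad encodes the enzyme that joins ALA molecules into porphobilinogen, and lies on chromosome 4 from 62509169 to 62519918. Its level was 573, 587 and 707 CPM in LSK controls, 869, 789 and 540.4 CPM after the agonist, 145, 99.6 and 97.2 CPM in GMP controls and 141, 124 and 118 CPM in GMP after the agonist. Every GMP library was below every LSK-labelled one, and the 2 GMP groups overlapped. In controls the log2 difference of GMP from LSK was -2.46 ± 0.25 (SE, n = 3 libraries per group, edgeR adjusted p = 9.94e-05), or 5.50-fold lower. Urod, the uroporphyrinogen decarboxylase gene on the same chromosome from 116989965 to 116994413, stood at 447, 485 and 518 CPM in the LSK-labelled control libraries and 707, 687 and 512 CPM after the agonist. In GMP it stood at 164, 112 and 119 CPM in controls and 112, 152 and 105 CPM after the agonist. Again the LSK-labelled and GMP libraries did not overlap, with a log2 difference of -1.89 ± 0.24 in controls (adjusted p = 0.000456). Uros encodes uroporphyrinogen III synthase, which closes the ring, and lies on chromosome 7 from 133686243 to 133710072. Per kilobase of transcript it was lower than Alad and Urod in every group. Its level was 42.5, 43.9 and 53.6 CPM in LSK controls, 57.4, 18.4 and 43.1 CPM after the agonist, 13.9, 17.5 and 10.995 CPM in GMP controls and 13.9, 12.7 and 17.01 CPM in treated GMP. The GMP values lay below all LSK-labelled ones, though treated LSK replicate 2 came close, and the control difference was -1.75 ± 0.37 (adjusted p = 0.00959).

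The last 3 steps take place at the mitochondrion. Cpox is the coproporphyrinogen oxidase gene, and its deposited position is chromosome 16 from 58670208 to 58680391. It measured 108, 87.2 and 161 CPM in LSK controls, 163, 134 and 131 CPM in treated LSK, 22.6, 10.6 and 20.1 CPM in GMP controls and 19.4, 20.7 and 9.76 CPM in treated GMP. It was 6.72-fold lower in GMP controls than in LSK controls, a log2 difference of -2.75 ± 0.39 (adjusted p = 0.000868). Ppox, the protoporphyrinogen oxidase gene on chromosome 1 from 171275990 to 171281186, had a wide spread among GMP controls, at 16.8, 45.7 and 17.3 CPM, against 91.4, 66.2 and 83.4 CPM in LSK controls. Treated libraries held 76.8, 98.6 and 81.2 CPM in LSK and 24.3, 30.0 and 34.0 CPM in GMP. GMP control replicate 2 was the library nearest to the LSK range but did not reach it, and the difference of -1.62 ± 0.34 passed (adjusted p = 0.00958). Exons of B4galt3 on the opposite strand cover 17.5% of Ppox exon bases, and reads there cannot be assigned without strand. Fech encodes ferrochelatase, the enzyme that inserts iron, and the deposited position is chromosome 18 from 64456550 to 64489066. Its values were 246, 373 and 326 CPM in LSK controls, 198, 311 and 271 CPM in treated LSK, 41.7, 50.2 and 45.5 CPM in GMP controls and 60.5, 60.2 and 75.3 CPM in treated GMP. With a log2 difference of -2.81 ± 0.24 in controls, or 6.99-fold, it had the smallest p of the 9 genes (adjusted p = 2.26e-05).

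The iron genes did not move together between the cell labels. Tfrc, the gene of transferrin receptor 1 on chromosome 16 from 32608920 to 32632794, stood at 472, 629 and 477 CPM in the LSK-labelled control libraries and 109.7, 175 and 183 CPM in GMP controls. It was 3.43-fold lower in GMP controls, with a log2 difference of -1.78 ± 0.22 (adjusted p = 0.000311). Slc25a37, which encodes mitoferrin 1 and lies on chromosome 14 from 69241848 to 69285112, went the other way. It stood at 24.8, 27.1 and 25.8 CPM in the LSK-labelled control libraries and 58.2, 53.2 and 70.8 CPM in GMP controls, with no overlap. The difference was 1.22 ± 0.25 (adjusted p = 0.00779). Slc25a28, the gene of mitoferrin 2 found in most tissues, was higher in GMP controls as well, at 22.4 ± 7.13 against 7.56 ± 2.66 CPM (SD, n = 3), a log2 difference of 1.58 ± 0.39 (adjusted p = 0.0200). Tfr2, the gene of the second transferrin receptor, followed Tfrc, at 25.6 ± 9.65 against 185 ± 14.3 CPM and a difference of -2.86 ± 0.30 (adjusted p = 0.000121).

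**Figure D1:**
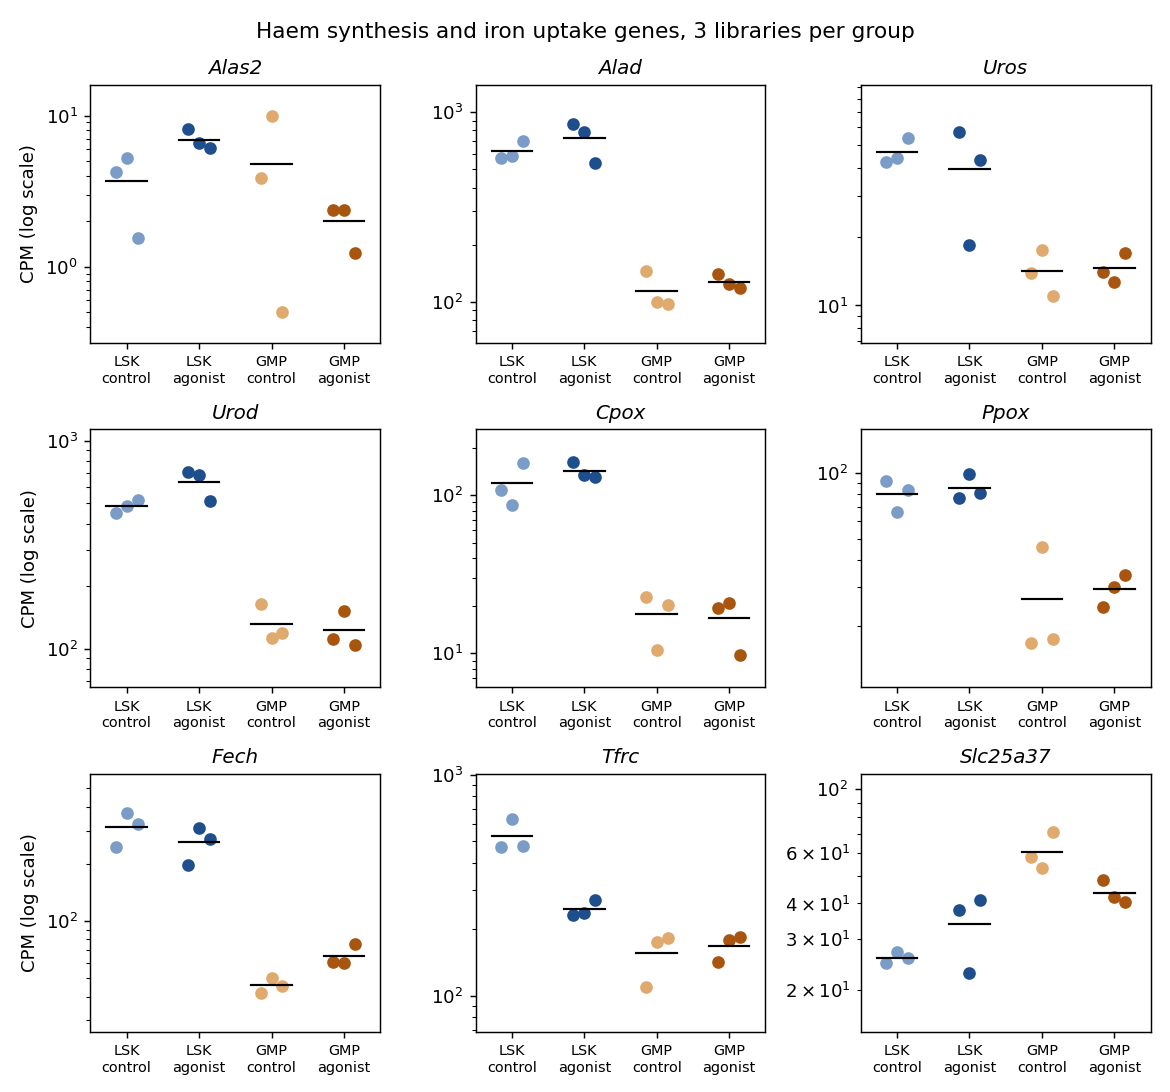
CPM of each of the 9 genes in the 12 libraries on log axes, 1 panel per gene, with points for libraries and a bar for the group mean (3 libraries per group). Alad, Uros, Urod, Cpox, Ppox, Fech and Tfrc are lower in all GMP libraries than in all LSK-labelled libraries. Slc25a37 is higher in GMP controls than in LSK controls, and Alas2 reaches at most 9.97 CPM.

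**Figure D2:**
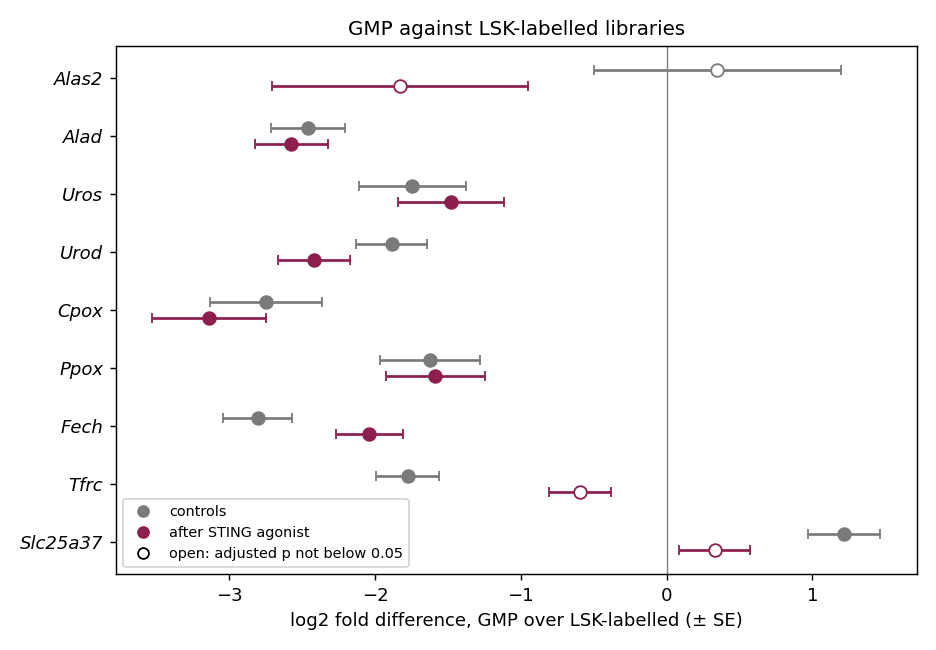
Log2 fold difference of GMP over LSK-labelled libraries with its standard error, in controls and after the agonist, for each gene (3 libraries per group). Filled points passed at an adjusted p below 0.05; 8 genes passed in controls and 6 after the agonist.

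After the agonist, 6 of the 9 genes were lower in GMP than in LSK-labelled libraries, and none was higher. They were the enzyme genes Alad, Uros, Urod, Cpox, Ppox and Fech. Over all genes 9.42% passed in this contrast, 4.85% as lower and 4.57% as higher. The log2 differences were -2.57 ± 0.25 for Alad (adjusted p = 6.33e-05), -2.42 ± 0.25 for Urod (adjusted p = 8.71e-05), -2.04 ± 0.23 for Fech (adjusted p = 0.000166) and -3.14 ± 0.39 for Cpox (adjusted p = 0.000363). Ppox (-1.59 ± 0.34, adjusted p = 0.0114) and Uros (-1.48 ± 0.36, adjusted p = 0.0233) passed with less room. Uros did not pass without treated LSK replicate 1 (adjusted p = 0.114) or without any single treated GMP library (0.0639 to 0.112), and Ppox did not without treated GMP replicate 1 (0.0558). Tfrc and Slc25a37, which passed in controls, did not pass here, with -0.59 ± 0.21 (adjusted p = 0.103) and 0.33 ± 0.24 (adjusted p = 0.463). The libraries of Tfrc still did not overlap, at 142, 178 and 184 CPM in treated GMP against 233, 237 and 270.0 CPM in treated LSK. Those of Slc25a37 overlapped, at 48.2, 42.1 and 40.5 against 37.9, 22.8 and 41.3 CPM. For 8 genes the treated GMP libraries all lay below the treated LSK libraries, as they did for 16.0% of all genes.

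The genes of both ALA synthases differed in level and in pattern. Alas2, the erythroid gene, lies on chromosome X from 150547375 to 150570638. It measured 4.23, 5.23 and 1.55 CPM in LSK controls, 8.14, 6.56 and 6.08 CPM in treated LSK, 3.85, 9.97 and 0.502 CPM in GMP controls and 2.38, 2.38 and 1.24 CPM in treated GMP. In controls the groups overlapped, and the difference of 0.35 ± 0.85 did not pass (adjusted p = 0.859); GMP control replicate 2 alone made it positive, and without that library it was -0.68. After the agonist the libraries did not overlap, with GMP lower, and the difference of -1.83 ± 0.88 did not pass (adjusted p = 0.226). Exons of Apex2 on the opposite strand cover 12.9% of Alas2 exon bases, so part of these few reads cannot be assigned. Alas1, the housekeeping gene, stood at 277, 222 and 382 CPM in the LSK-labelled control libraries and 1828, 2487 and 1429 CPM in GMP controls. It was 6.41-fold higher in GMP controls (log2 2.68 ± 0.43, adjusted p = 0.00210) and 7.41-fold higher after the agonist (2.89 ± 0.43, adjusted p = 0.00130). Per kilobase of transcript, Alas2 made up 2.31% ± 1.56 of the summed Alas1 and Alas2 level in LSK controls (SD, n = 3), 4.83% ± 3.09 in treated LSK, 0.358% ± 0.303 in GMP controls and 0.139% ± 0.0544 in treated GMP. Alas1 was thus the more abundant synthase mRNA in every library, those with high erythroid markers included. In treated LSK replicate 3 Alas1 was highest of the LSK-labelled libraries, at 604 CPM, and so was the granulocyte-monocyte marker sum, at 11332 CPM; the part of those cells was not tested.

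**Figure D3:**
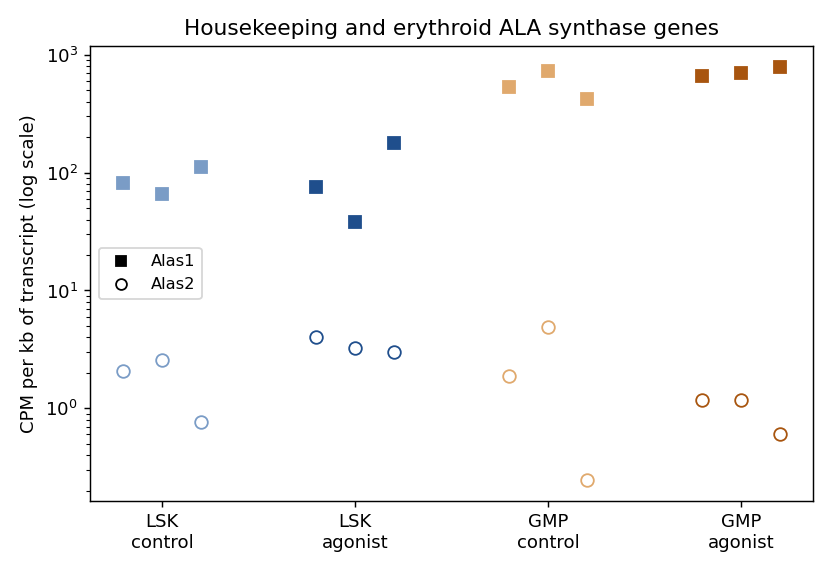
CPM per kilobase of transcript on a log axis for Alas1 (squares) and Alas2 (open circles) in each of the 12 libraries. Alas1 is above Alas2 in every library, and the Alas2 share of their sum runs from 0.0586% to 7.83%.

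The 9 genes and Alas1 were also ordered by level per length, with overlaps between many neighbours. In LSK controls Alad led at 499 ± 59.0 CPM per kb, then came Urod at 325 ± 23.6 and Tfrc at 108 ± 18.3, which overlapped Alas1 at 86.4 ± 23.9 within their SDs (n = 3). Fech, Ppox, Cpox and Uros followed between 47.9 and 26.5 CPM per kb, with each neighbour overlapping the next. Slc25a37 at 6.20 ± 0.276 and Alas2 at 1.80 ± 0.933 CPM per kb were lowest and stood apart from each other. In GMP controls Alas1 led at 563 ± 157 CPM per kb, and Alad (91.4 ± 21.5) and Urod (88.5 ± 18.7) were next and did not differ beyond their SDs. Tfrc (31.9 ± 8.22), Ppox (14.6 ± 9.08) and Slc25a37 (14.5 ± 2.17) overlapped as neighbours, and Uros, Fech, Cpox and Alas2 ran from 8.02 to 2.34 CPM per kb. The length used for Fech was that of a transcript of 6571 bases, the longest of the 10 genes, and its place depends on it.

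The question of the study, whether the STING agonist changes these progenitors, was asked of the same genes within each cell label. In LSK-labelled libraries no member passed with edgeR, where 0.338% of 13922 genes passed, all as higher; 2 members had an unadjusted p below 0.05, as had 11.8% of all genes. Tfrc had the smallest p. It stood at 472, 629 and 477 CPM in controls and at 233, 237 and 270.0 CPM after the agonist, so that all treated libraries were below all controls. The log2 difference was -0.96 ± 0.19 (edgeR adjusted p = 0.138). In the authors' deposited table the log2 fold change of Tfrc was -0.99 with an adjusted p of 0.000116, where 5.05% of genes passed. DESeq2 on the same counts gave an adjusted p of 0.000117 (4.25% of genes passed), edgeR without a filter on low counts 0.0238 (1.87%), and limma-voom 0.0878 (0.395%). The call on Tfrc thus depended on the tool, whereas its direction was the same in all 14 alternative fits, from -1.09 to -0.79. Over all genes, 12.7% had every treated library below every control.

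The other 8 members did not pass in LSK-labelled libraries under any alternative. Urod was the nearest, with the values given above and a log2 difference of 0.54 ± 0.21 (edgeR adjusted p = 0.385); treated replicate 3 lay within the control range. Alas2 was higher in all 3 treated libraries than in all controls, as were 7.13% of all genes, with 1.07 ± 0.70 (adjusted p = 0.598). Alad (0.38 ± 0.24), Cpox (0.40 ± 0.27), Slc25a37 (0.52 ± 0.30) and Ppox (0.24 ± 0.22) had positive differences with overlapping libraries, and adjusted p ran from 0.542 to 0.730. Fech (-0.14 ± 0.25) and Uros (-0.11 ± 0.40) changed sign when single libraries were left out. Mitochondrial genes held 1.70 to 2.41% of counts in LSK controls and 2.72 to 3.61% in treated LSK, and their part in these differences was not tested. Megakaryocyte markers, 10 in the table, summed to 226 to 499 CPM in the LSK-labelled control libraries and 78.1 to 115 CPM in treated LSK, with Ppbp and Treml1 at 0 in all treated libraries; their part was likewise not tested. Stem cell and LSK markers summed to 298 to 554 CPM in these controls and to 184 to 240.3 CPM after the agonist, and marrow macrophage markers to 22.6 to 46.3 and 10.02 to 19.1 CPM, again with no overlap and with their part not tested. The erythroid marker sums of the treated and control LSK libraries overlapped.

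In GMP no member passed either, where 0.426% of 15027 genes passed with edgeR. Fech was higher in all treated libraries, at 60.5, 60.2 and 75.3 CPM against 41.7, 50.2 and 45.5 CPM in controls, as were 6.29% of all genes. Its log2 difference was 0.58 ± 0.19 (edgeR adjusted p = 0.384), and the authors' deposited table gives an adjusted p of 0.0678 (2.69% of genes passed). It was the 1 member with an unadjusted p below 0.05, as 9.14% of all genes had. Slc25a37 was lower in all treated libraries, with 48.2, 42.1 and 40.5 against 58.2, 53.2 and 70.8 CPM (10.3% of all genes were lower in this way), and a difference of -0.42 ± 0.21 (adjusted p = 0.615). Tfrc had a difference of 0.17 ± 0.23 (adjusted p = 0.896), with 142, 178 and 184 CPM after the agonist and 109.7, 175 and 183 CPM in controls. Alas2 had the largest difference in size, -1.15 ± 0.89 (adjusted p = 0.782), on counts of 48 to 86 in treated and 17 to 319 in control libraries. For Alad, Uros, Urod, Cpox and Ppox the differences lay between -0.04 and 0.23 with SEs of 0.21 to 0.41. DESeq2 and limma-voom called no member in GMP, against 2.23% and 0.393% of all genes. Erythroid markers summed to less in treated GMP (47.6 to 54.7 CPM) than in GMP controls (78.7 to 83.9 CPM). So did megakaryocyte markers (21.2 to 37.7 against 38.5 to 115 CPM, with 8 of 8 tested genes at negative differences and 1 passing) and globins (0.831 to 3.41 against 8.81 to 12.7 CPM). Mitochondrial genes held 1.24 to 1.96% against 2.13 to 3.52% of counts. The part of these lists in the members' differences was not tested.

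Whether the agonist acted differently on the members in the 2 cell labels was tested as an interaction over all 12 libraries. No member and none of the 16857 genes passed with edgeR (0.0%), while 3 members, Tfrc, Slc25a37 and Fech, had an unadjusted p below 0.05, as had 10.1% of all genes. The effect on Tfrc was 1.18 ± 0.30 higher in GMP than in LSK on the log2 scale (edgeR adjusted p = 0.374). With DESeq2 that value was 1.16 (adjusted p = 0.0382, 1.09% of genes passed), and limma-voom gave an adjusted p of 0.294. Slc25a37 had a difference of -0.89 ± 0.34 (adjusted p = 0.446) and Fech of 0.77 ± 0.31 (adjusted p = 0.460). For the other 6 members adjusted p ran from 0.549 to 0.993. These p-values miss the threshold and do not show that the effects were alike in both labels.

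**Figure D4:**
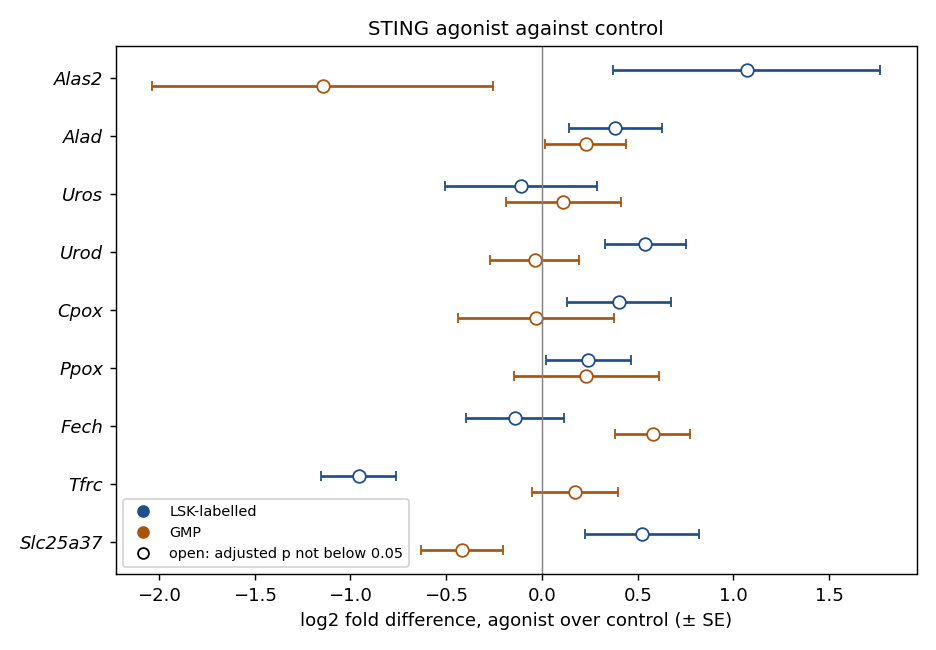
Log2 fold difference of agonist over control with its standard error, for the 9 genes in LSK-labelled and in GMP libraries (3 libraries per group). All points are open because no gene passed at an adjusted p below 0.05 with edgeR; Tfrc in LSK-labelled libraries (-0.96) lies farthest from 0 relative to its error.

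The related genes of the pathway were taken from lists. Of 13 haem synthesis companions tested between labels in controls, 5 were lower in GMP and 2 were higher, with a median log2 difference of -0.70. Over all genes 6.98% passed as lower and 4.55% as higher in this contrast. The lower ones included Slc25a38, the mitochondrial glycine carrier that feeds ALA synthase (30.5 ± 9.33 against 183 ± 9.78 CPM, -2.59 ± 0.25, adjusted p = 5.38e-05). Clpx, a mitochondrial chaperone that activates ALA synthase, was lower by -1.40 ± 0.25 (adjusted p = 0.00416), as were Pgrmc1, a haem-binding partner of ferrochelatase (-1.20 ± 0.23), and Fam210b (-1.74 ± 0.41). The higher ones were Alas1 and Slc25a28. After the agonist 6 were lower, among them Tmem14c, a porphyrin carrier of the inner membrane (-1.08 ± 0.24, adjusted p = 0.0133), and 1, Alas1, was higher. The shares of all genes after the agonist were 4.85% lower and 4.57% higher.

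Of 21 genes of iron handling and iron-sulfur assembly, 7 were lower and none was higher in GMP controls, with a median of -0.64. Of all genes 6.98% passed as lower and 4.55% as higher. Steap3, the ferrireductase of the transferrin cycle, stood at 40.1 ± 3.0 CPM in GMP controls and 287 ± 39.5 CPM in LSK controls (-2.86 ± 0.20, adjusted p = 6.25e-06). Slc11a2, the gene of the iron transporter DMT1 that acts after it, differed by -2.49 ± 0.26, and Slc40a1, which encodes the iron exporter ferroportin, by -3.66 ± 0.35 (adjusted p = 5.62e-05). Isca1 (-1.99 ± 0.21) and Hspa9 (-1.22 ± 0.21) of iron-sulfur assembly were lower too, as was Aco1 (-1.58 ± 0.39, adjusted p = 0.0204), whose product is iron regulatory protein 1. After the agonist 9 were lower and 1, Ncoa4, the receptor that sends ferritin to lysosomes, was higher (1.43 ± 0.34, adjusted p = 0.0179). Of all genes 4.85% passed as lower and 4.57% as higher after the agonist.

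Among 9 genes of haem breakdown, export and sensing, 1 was lower and 1 higher in GMP controls. Over all genes 6.98% passed as lower and 4.55% as higher, and counts this small do not set this list apart. Blvrb, a biliverdin reductase abundant in red cells, stood at 15.4 ± 3.34 against 736 ± 211 CPM (-5.60 ± 0.34, adjusted p = 3.84e-06). Hmox2, the constitutive haem oxygenase, was higher (1.14 ± 0.24, adjusted p = 0.00989). Globin genes were low in all groups: 3 of 7 listed were tested, none passed in controls, and Hba-a1 stood at 12.1 ± 6.59 CPM in the LSK-labelled control libraries and 7.86 ± 1.25 CPM in GMP controls. Of 13 erythroid markers tested 12 were lower in GMP controls, with a median of -7.77. Car2, a carbonic anhydrase gene, stood at 6951 ± 1318 CPM in the LSK-labelled control libraries and 59.0 ± 5.18 CPM in GMP controls (-6.90 ± 0.28, adjusted p = 8.89e-08), and Klf1, an erythroid transcription factor, at 641 ± 128 and 4.53 ± 1.68 CPM (-7.18 ± 0.45). Of 11 granulocyte-monocyte markers 9 were higher, with a median of 4.24.

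**Figure D5:**
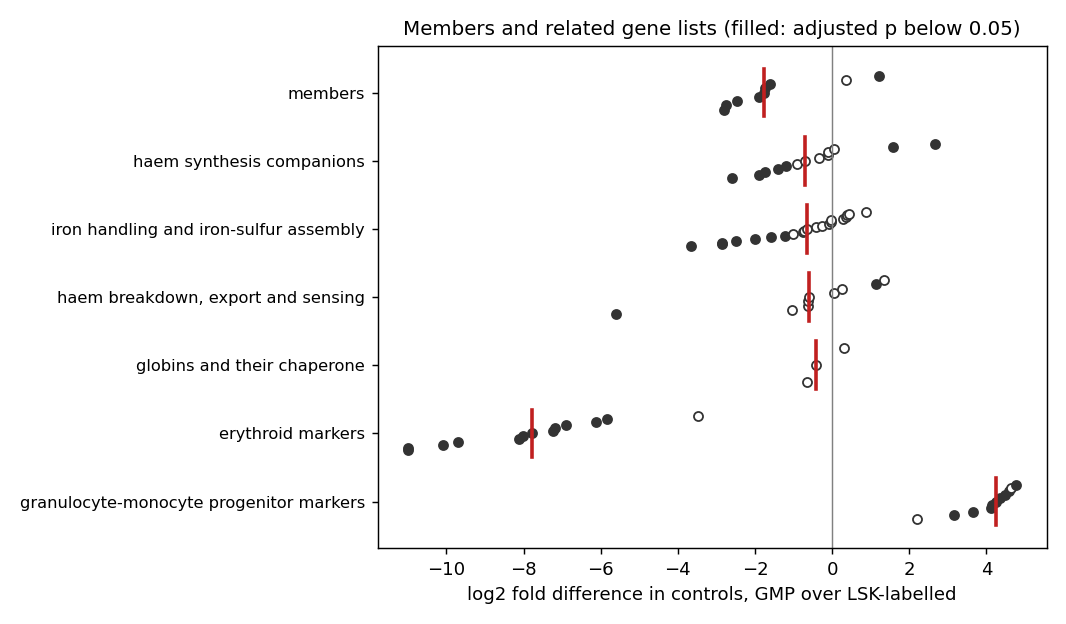
Log2 fold difference of GMP over LSK-labelled libraries in controls for every tested gene of 7 lists, 1 point per gene and 1 vertical mark for the median of each list. Filled points passed at an adjusted p below 0.05; medians run from -7.77 for erythroid markers to 4.24 for granulocyte-monocyte markers, and that of the 9 genes (members) is -1.78.

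In the agonist comparisons no gene of the companion, iron, breakdown, globin or erythroid lists passed with edgeR in either label. At an unadjusted p below 0.05 there were 1 of 12, 4 of 21, 3 of 8, 0 of 3 and 2 of 13 tested genes of these lists in LSK-labelled libraries, where 11.8% of all genes had such a p. In GMP there were 2 of 12, 1 of 21, 1 of 9, 2 of 2 and 2 of 8, against 9.14% of all genes. The other tools were run over all genes, but their values for single genes were kept only for the members. DESeq2 passed 4.25% of genes in LSK-labelled libraries and 2.23% in GMP, so list genes may pass with it. In LSK-labelled libraries those with no overlap and the smallest p were Eif2ak1, the haem-regulated kinase that slows translation (50.5 ± 19.6 after the agonist against 114 ± 13.4 CPM, -1.04 ± 0.27, adjusted p = 0.270), Hspa9 (-0.74 ± 0.20, adjusted p = 0.279) and Flvcr1, a haem exporter (1.03 ± 0.29, adjusted p = 0.288). Slc25a28 stood at 17.3, 17.2 and 17.1 CPM after the agonist and at 9.96, 4.70 and 8.01 CPM in controls (1.34 ± 0.44, adjusted p = 0.338). In GMP the globin gene Hba-a1 stood at 0.750, 0.637 and 2.09 CPM after the agonist and 6.41, 8.59 and 8.57 CPM in controls (-2.70 ± 0.60, adjusted p = 0.145). In GMP 2 marker genes passed. The platelet gene Pf4 was lower (-4.93 ± 0.69, adjusted p = 0.0163), and Ly6a was higher (6.75 ± 1.02, adjusted p = 0.0244).

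The genes most like 3 of the members across libraries were found by the root-mean-square difference of log2(CPM + 1), each gene centred on its own mean over 12 libraries, among 9149 genes of at least 5 CPM on average, genes with clone-type names left out. For Alad the nearest were Mns1 (0.204), Tspan13 (0.220), Plscr1 (0.245), Urod (0.254) and Clybl (0.296), so that another pathway member ranked 4; Cpox ranked 20 and Fech 22. For Tfrc they were Rrm1 (0.181), Ubxn2a, Hsph1, Zadh2 and Ak3 (0.239), and its nearest fellow member was Uros at rank 792. For Alas2 they were Mroh2a (0.396), Itga5, Edem3, Trim39 and Setdb1 (0.551), and no fellow member ranked above 1840, the place of Ppox. The LSK-labelled and GMP libraries differ in many genes, and this likeness is over libraries that share that split.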

How the data were processed

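RNA of 12 libraries in 4 groups of 3 was measured by Smart-Seq2. For each cell label the authors deposited a table of whole-number read counts per gene and library, as its header names them. Beside the counts stands the authors' base mean (a signal, here the mean of size-factor-scaled counts, within 0.1% for 100% of genes). The authors' log2 fold change is given too. The deposited p-value and adjusted p complete each table. For the aligner, the counter, the strand setting and the authors' test a name was not given in the sources used here. GENCODE M21 had the same position for 94.6% of matched LSK and 94.7% of matched GMP identifiers, so positions are called GRCm38 although mm9 is listed per the submitters' processing notes. Among the members, the deposited positions of Cpox and Fech differed from those in GENCODE M21. Each table held 1 empty line, which was left out.

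Levels are counts per 1000000 counts of the library (CPM). Per-length levels divide by the longest APPRIS principal transcript of GENCODE M21. Counts were tested over all genes in R 4.3.3 with edgeR 4.0.16 and its quasi-likelihood test (TMM, filterByExpr, Benjamini-Hochberg, called below 0.05). Agonist effects were fitted on 6 libraries per label, and contrasts between labels and the interaction on all 12. SE is the log2 difference divided by the square root of F. Alternatives were other scaling factors, no filter and a stricter filter, DESeq2 1.42.0, limma-voom 3.58.1, a replicate block, a joint fit and leaving out each library. All 9 genes passed the filter on low counts in every fit. No label gives a batch. Fits were tested on simulated data with 200 changed genes and the spread that edgeR fits to genes of like level. At an adjusted p below 0.05 the LSK agonist fit recovered 17.6% of genes changed by a log2 of 1 and 51.5% by 2. The GMP agonist fit recovered 30.9% and 74.2%, and the contrast between labels in controls 17.6% and 71.2%. Most changes of log2 1 were thus missed, and a member that did not pass may have changed. The reads carry no molecular identifiers.

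The members, the 11 other lists and the alternatives were chosen with earlier results of these data known. Named genes are all 9 members, candidates from each list (up to 5 called genes by smallest p, filled to 3 where fewer were called), the paralogs Alas1, Slc25a28 and Tfr2, and the 5 genes most like Alas2, Tfrc and Alad. Basophil, lymphoid, macrophage and stem cell lists served as a check of the labels. Sums of the macrophage and stem cell lists are also given for treated and control LSK-labelled libraries. Ly6a of the stem cell list is named as a gene that passed in GMP. Same-numbered control and treated libraries did not deviate together. The values of 1 haem synthesis companion gene are not reported here.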

Additional observations from a re-analysis of the deposited data

How the results depend on the processing

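Among the values of single members, 731 of the alternative values kept direction and side of the threshold, 25 changed sign, 3 gained and 6 lost the threshold. Genes called over all genes moved more. In LSK-labelled libraries 47 were called, against 557 without a filter, 519 with DESeq2, 107 in the joint fit and 11 to 36 when single libraries were left out, lowest without treated replicate 1. In GMP 64 were called, against 275 without a filter, 334 with DESeq2, 40 in the joint fit and 18 to 78 without single libraries, with 18 for each treated library. Between labels DESeq2 called 3042 genes in controls (1943 with edgeR, 1019 to 2032 without single libraries, lowest without LSK control replicate 2) and 2786 after the agonist (1588 with edgeR, 850 to 2080, lowest without treated GMP replicate 3). For the interaction DESeq2 called 176 genes against 0, and 0 to 22 were called without single libraries, 22 of them without treated LSK replicate 3. Members called rose from 0 to 1 (Tfrc) in LSK without a filter and with DESeq2, and in the interaction with DESeq2; after the agonist 4 to 6 members were called between labels when single libraries were left out. The cause of these shifts was not tested.

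The sign changes were all of values that did not pass. In LSK-labelled libraries Uros ran from -0.51 to 0.22 and Fech from -0.33 to 0.016 over fits without single libraries. In GMP Urod ran from -0.22 to 0.20 and Cpox from -0.29 to 0.25, and the joint fit gave 0.015 and 0.022. Between labels in controls Alas2 was -0.36 with limma-voom, -0.15 with the replicate block and -0.68 to 0.88 without single libraries. For the interaction Alad ran from -0.33 to 0.13, Uros from -0.077 to 0.66 and Ppox from -0.19 to 0.60.

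Replicate numbers gave no pairing: correlations of same-numbered libraries' deviations were 0.007, 0.09 and -0.036 in LSK and 0.11, -0.049 and 0.041 in GMP. With the replicate number as a block, 10 genes were called in LSK, 20 in GMP, 1673 between labels in controls, 1449 after the agonist and 0 for the interaction, and 0, 0, 8, 5 and 0 members. Uros between labels after the agonist did not pass with the block (-1.38, adjusted p = 0.0697). Alas2, with 17 to 319 counts per library, is the member that depth limits most.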
